A study of Mus musculus with 48 samples.

Results

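DNA methylation was examined at 10 genes that mark interneurons and peptide-releasing neurons of the amygdala, namely Npy, Npy1r, Sst, Penk, Pdyn, Tac1, Tac2, Vip, Prkcd and Pvalb. A locus was taken as a member when it overlapped the body of 1 of these genes (GRCm38, GENCODE M21) or the 5 kb on either side of it. This rule gave 33 of the 187695 loci of the series, in 8 of the 10 genes. The samples were amygdala DNA of male C57BL/6 mice (C57BL/6N in the study's methods) at 4 months of age, sequenced after capture by a protein domain that binds methylated CpGs (MBD-seq), so that a higher read count at a locus stands for more methylated DNA captured there. The mice were Tph2+/+ (wildtype), Tph2+/- (heterozygous) or Tph2-/- (lacking the neuronal enzyme of serotonin synthesis, tryptophan hydroxylase 2, by constitutive knockout), all offspring of Tph2+/- parents. Each genotype had been raised under maternal separation (MS, 3 h per day from postnatal day 2 to 15) or as controls without it (C), with 8 mice and 8 libraries in each of the 6 groups. In the study whole litters were assigned to MS or C, and the labels do not give the litter of a mouse.

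The amygdala holds excitatory neurons and several kinds of GABA-releasing neurons that are told apart by the calcium-binding proteins and peptides they make. Parvalbumin (Pvalb) cells inhibit the cell body of principal neurons, somatostatin (Sst) cells their dendrites, and cells with vasoactive intestinal peptide (Vip) mainly inhibit other interneurons. In the central amygdala, protein kinase C delta (Prkcd) and somatostatin mark populations of inhibitory neurons known for their part in conditioned fear. Neuropeptide Y (Npy) acts through receptors such as Npy1r and is known to dampen anxiety, enkephalin (Penk) and dynorphin (Pdyn) are opioid peptides, and Tac1 and Tac2 encode the tachykinins substance P and neurokinin B. In mammalian DNA, CpG-rich gene starts are mostly free of methylation while gene bodies carry it. The tissue was the whole amygdala of both hemispheres, so a change in the share of a cell type and a change of methylation within it cannot be told apart, and DNA counts hold no marker by which the dissection could be checked.

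Library totals ranged from 7.72 to 14.1 Mcounts (counts with the prefix mega). Tph2-/- MS replicates 3 and 7, which had the lowest totals of their group, were left out of all fits, because the study excluded 2 libraries of that group that the labels do not name, so 46 libraries were fitted. The sample numbers in the labels ran S1 to S17 and S42 to S48 in controls and S18 to S41 in MS mice, so that no run of numbers held both conditions and MS and the order of the samples cannot be told apart. Libraries S18 to S26 had a CpG slope, the change of the log2 level with each SD of CpG density, of 0.117 ± 0.117 (SD, n = 9), against mean slopes of -0.0489 to -0.0206 in the other runs. Tph2-/- MS replicate 2, which stayed in the fits, had a slope of 0.238 and a TMM scaling factor of 0.80. Replicate 7 had 0.117 and 0.90, and replicate 3 had 0.342 and 0.57. The study also gave shifted densities and extra peaks as grounds. With replicates 2 and 3 left out instead, 1605 loci of the series passed the limits given below for MS in Tph2-/- mice, against 2769. No count of called members changed.

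The CpG-rich gene starts of the members carried no locus. The density of CpGs from 1000 bp before to 500 bp after the start was highest at Prkcd (5.73 per 100 bp), Npy (5.33) and Penk (4.93), followed by Tac1 (3.53), Npy1r (2.73) and Sst (2.66), and none of these windows overlapped a locus. The starts of Pdyn (1.80), Vip (0.93) and Tac2 (0.80) were poorer in CpGs and also held no locus. The start of Pvalb (1.47) was the 1 member start with a locus. Of all 21911 protein-coding genes, 13.9% had a locus at the start, with a median density of 1.93 CpGs per 100 bp at starts with a locus and 3.53 at starts without. A missing locus means that no peak was called there in the merged set, which is not a measurement of 0 methylation.

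**Figure D1:**
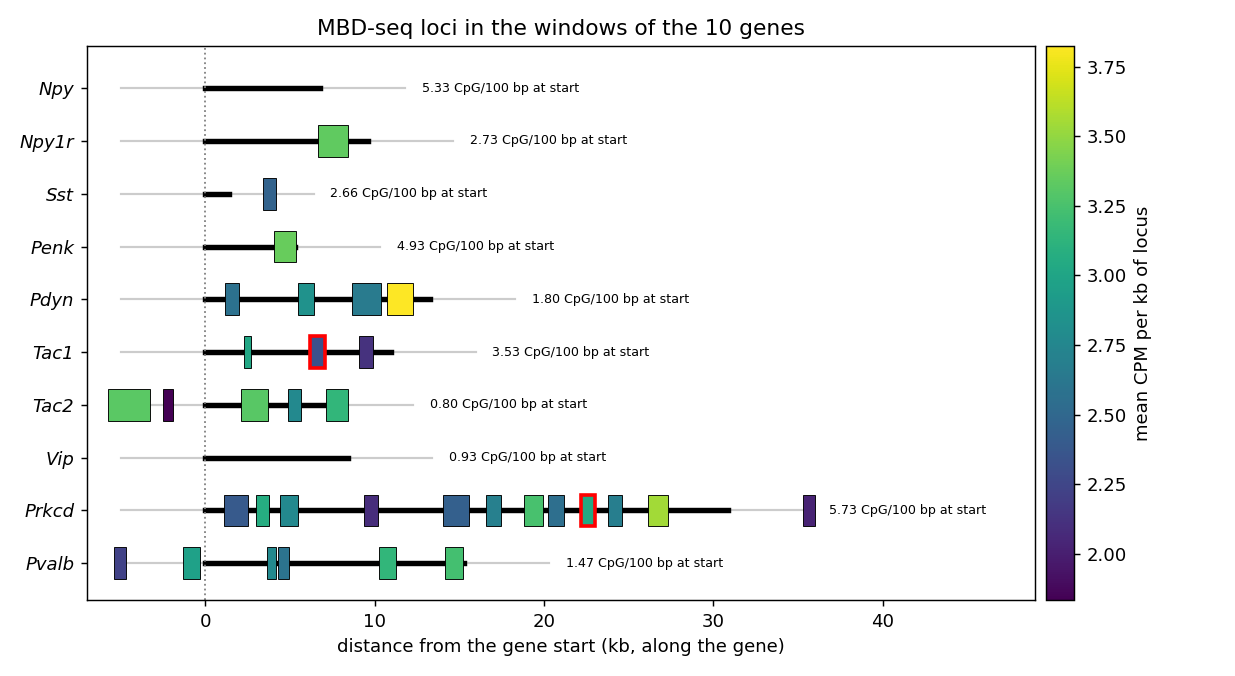
Each row is 1 of the 10 genes, with the gene body as a black bar, the 5 kb on each side in grey and loci as boxes at their distance from the gene start in kb, coloured by mean CPM per kb of locus; red outlines mark the loci Tac1-2 and Prkcd-9, which passed the study's limits in a contrast. Npy and Vip have no locus, and only Pvalb has a locus at its start.

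The sequences upstream of Npy and Vip are shown because these are the 2 members without any locus, and they differ in CpG content. Both are the 250 bases before the RefSeq start on GRCm38, on the plus strand, 5′ to 3′, with each CpG in capitals. The Npy sequence (chr6:49822460-49822709) holds 21 CpGs and the Vip sequence (chr10:5638968-5639217) holds 3.
Npy: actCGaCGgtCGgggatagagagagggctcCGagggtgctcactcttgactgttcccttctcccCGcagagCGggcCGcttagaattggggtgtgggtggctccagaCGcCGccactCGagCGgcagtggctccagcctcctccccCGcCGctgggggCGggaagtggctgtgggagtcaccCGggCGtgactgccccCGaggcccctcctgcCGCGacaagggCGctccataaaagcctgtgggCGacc
Vip: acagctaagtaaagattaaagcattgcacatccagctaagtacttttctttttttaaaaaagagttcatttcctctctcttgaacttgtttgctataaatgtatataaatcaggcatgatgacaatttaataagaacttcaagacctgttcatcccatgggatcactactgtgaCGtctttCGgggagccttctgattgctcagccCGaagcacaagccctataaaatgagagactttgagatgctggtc
In the promoter windows of RefSeq (250 bases before to 50 after a start, GRCm38), to which 9 of the 10 members matched (all but Penk), the count of CpGs was 24 at Npy, 26 at Prkcd, 22 at Tac1 and 3 at Tac2, against a median of 7 over 32851 windows. The full palindromic form of the cAMP response element, TGACGTCA, is a binding site of CREB that holds a CpG and reads the same on both strands. This form was found in 1 of these 9, that of Sst, beginning 48 bp before the start. It occurred in 588 of the 32851 windows (1.79%). No locus covered the site of Sst. Only this exact sequence was searched, so variant forms of the element were not counted. The Vip sequence above holds TGACGTCT, which differs from it at the last base, and Penk was not searched.

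Npy (chr6:49822710-49829507, ENSMUSG00000029819) and Vip (chr10:5639218-5647617, ENSMUSG00000019772) had 0 loci within 5 kb. The locus nearest to Npy lay 6528 bp upstream and had a mean of 27.98 counts per library, and the locus nearest to Vip lay 12175 bp away. Of all protein-coding genes 21.5% had no locus in their window, and among the 6689 genes no shorter than Sst and no longer than 10 kb this share was 34.7%. Their methylation could not be compared between groups.

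The other 8 genes carried 1 to 12 loci. Npy1r, Sst and Penk had 1 each, Tac1 had 3, Pdyn 4, Tac2 5, Pvalb 6 and Prkcd, the longest gene, 12. Counted over whole loci, their CpGs came to 53.9% of those in the window of Tac2, 33.9% for Pdyn, 31.9% for Prkcd and 7.0% for Sst. Tac2-1 and Prkcd-12 reach beyond the 5 kb limit, so the values of Tac2 and Prkcd are upper bounds of the share covered. Of the 33 loci, 17 touched an exon of their gene, 10 lay within an intron, 4 upstream and 2 downstream. The locus Tac2-1 (loci are numbered along each gene from its start) overlapped the neighbouring gene Myo1a, and Tac2-2 overlapped the 5 kb window of that gene, so their counts belong to both. Tac2 and Vip are on chromosome 10 with Tph2, at 12.5 and 109 Mb from it.

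The captured level of the members was close to that of the series. The median over the 33 loci was 2.77 CPM (read counts scaled to the library total with TMM factors) per kb of locus, against 2.71 over all loci, and the median of their mean counts was 26.9 against 26.4. Across the 33 loci the level rose with CpG density (Spearman's rho 0.47, a description over loci that share libraries, against 0.45 over all 187695 loci). Pdyn-4, over exonic sequence towards the 3′ end of Pdyn and with 2.83 CpGs per 100 bp, had the highest level of the members at 3.82 CPM per kb. Tac2-2 had the lowest at 1.83, in the lowest 1.2% of all loci, with 2.32 CpGs per 100 bp.

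**Figure D2:**
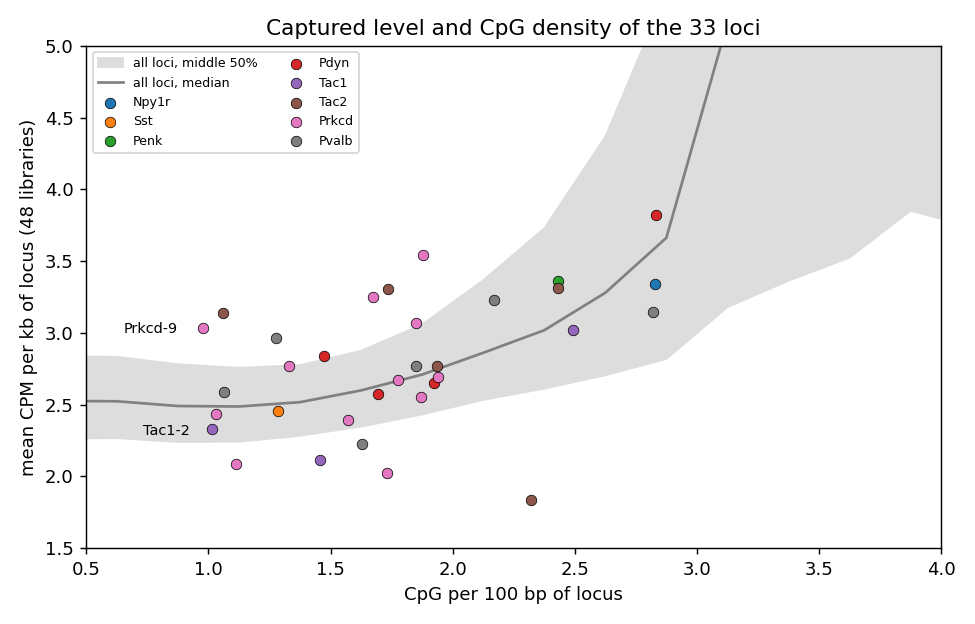
Mean level over 48 libraries (CPM per kb of locus) against CpG density (CpG per 100 bp) for the 33 member loci, coloured by gene, with the median and middle 50% of all loci in grey. The member loci lie from 1.83 to 3.82 CPM per kb, and Prkcd-9 (3.03) lies above the median of loci of like density.

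Summed over the loci of a gene and divided by their length, the levels were alike. Penk had a mean of 3.36 ± 0.82 CPM per kb (SD, n = 48), Npy1r 3.34 ± 0.54, Tac2 3.09 ± 0.41, Pdyn 3.05 ± 0.37, Pvalb 2.89 ± 0.32, Prkcd 2.72 ± 0.26, Sst 2.46 ± 0.78 and Tac1 2.39 ± 0.57. Neighbours in this order did not differ beyond their spread: Penk was above Npy1r in 24 of the 48 libraries, Tac2 above Pdyn in 24, and the most regular pair, Pvalb above Prkcd, kept its order in 33. Genes with few loci varied more between libraries, with a coefficient of variation of 31.9% for Sst, which rested on a mean of 20.8 counts per library, and 9.5% for Prkcd, which rested on a mean of 354. Within Prkcd, the 12 loci ranged from 2.02 CPM per kb at Prkcd-12, downstream of the gene, to 3.55 at Prkcd-11 over a coding exon near its end. The highest loci of the other genes with several were Pdyn-4, Tac2-1 (3.32 CPM per kb), Pvalb-6 (3.23) and Tac1-1 (3.02).

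The CpG content of the loci on which the following results turn is shown by the stretch of 300 bases richest in CpGs within each, on the strand of the gene, 5′ to 3′, on GRCm38, with CpGs in capitals. Prkcd-9 (chr14:30603185-30604001, minus strand, intron) and Tac1-2 (chr6:7561036-7561923, plus strand, intron) were the 2 loci past the study's limits, Pvalb-2 (chr15:78206706-78207724, minus strand, upstream) was the locus at a gene start, and Pvalb-5 (chr15:78195158-78196150, minus strand, intron) was the intronic locus with the highest CpG density. The stretches are chr14:30603195-30603494 with 8 of the 8 CpGs of Prkcd-9, chr6:7561372-7561671 with 7 of the 9 of Tac1-2, chr15:78207124-78207423 with 9 of the 13 of Pvalb-2 and chr15:78195558-78195857 with 16 of the 28 of Pvalb-5.
Prkcd-9: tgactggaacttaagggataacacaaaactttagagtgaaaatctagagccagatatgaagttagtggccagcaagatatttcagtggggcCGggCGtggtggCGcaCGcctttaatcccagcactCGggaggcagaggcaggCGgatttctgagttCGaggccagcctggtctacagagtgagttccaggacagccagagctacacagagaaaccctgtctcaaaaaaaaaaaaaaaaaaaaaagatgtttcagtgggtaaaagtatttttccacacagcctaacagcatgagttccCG
Tac1-2: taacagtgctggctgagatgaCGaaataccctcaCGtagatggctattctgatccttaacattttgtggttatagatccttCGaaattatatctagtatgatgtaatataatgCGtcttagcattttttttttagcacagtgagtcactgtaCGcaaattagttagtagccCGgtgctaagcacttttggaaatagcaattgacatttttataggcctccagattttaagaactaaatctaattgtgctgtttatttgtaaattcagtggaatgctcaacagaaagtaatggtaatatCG
Pvalb-2: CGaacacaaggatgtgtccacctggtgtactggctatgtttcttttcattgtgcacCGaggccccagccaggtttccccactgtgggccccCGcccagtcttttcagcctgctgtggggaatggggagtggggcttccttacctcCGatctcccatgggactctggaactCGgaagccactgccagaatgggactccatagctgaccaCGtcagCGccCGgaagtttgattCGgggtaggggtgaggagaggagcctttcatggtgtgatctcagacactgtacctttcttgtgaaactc
Pvalb-5: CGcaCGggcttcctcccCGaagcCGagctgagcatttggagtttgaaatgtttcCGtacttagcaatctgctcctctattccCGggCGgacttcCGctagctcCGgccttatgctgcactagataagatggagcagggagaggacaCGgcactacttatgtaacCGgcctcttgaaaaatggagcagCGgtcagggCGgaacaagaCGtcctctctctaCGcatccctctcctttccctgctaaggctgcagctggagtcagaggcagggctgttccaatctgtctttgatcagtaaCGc
Of the 8 CpGs of Prkcd-9, 7 lay in sequence that the reference masks as a repeat, and of its 16 stretches of 50 bases (the read length in the labels), 2 occur at more than 1 place in the genome, 1 of them at 3411. None of the 9 CpGs of Tac1-2 was masked, and each of its 17 stretches occurs once. How reads of repeats were treated is not given in the sources used here.

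The interplay of genotype and MS was addressed by 2 contrasts. GE1 compares the MS effect (MS minus C) of Tph2+/- mice with that of the wildtype, and GE2 does the same for Tph2-/- mice, with the wildtype effect subtracted in each case. Together with MS against C over all genotypes and within each, and the 2 genotype comparisons over both conditions, this gave 8 contrasts, which share groups and are not independent. The limits were those of the study: a locus was called where its log2 fold change went beyond 0.2 with a p, before adjustment, under 0.01 (edgeR quasi-likelihood test).

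Few member loci were called. Prkcd-9 was called in GE1 and in MS against C in Tph2+/- mice, and Tac1-2 in MS against C in Tph2+/+ mice, each with a negative log2 fold change. This was 1 of 33 loci in GE1, where 0.626% of all loci were called, 1 in MS against C in Tph2+/- mice (0.779% of all loci) and 1 in MS against C in Tph2+/+ mice (1.31%). None of the 33 was called in GE2 (0.558%), MS against C over genotypes (3.63%), MS against C in Tph2-/- mice (1.48%), Tph2-/- against Tph2+/+ (0.748%) or Tph2+/- against Tph2+/+ (0.546%). At an adjusted p under 0.05 (Benjamini-Hochberg over all loci), none of the members was called in any contrast, where 0.0128% of all loci were called for MS over genotypes, 0.0139% for Tph2-/- and 0.00213% for Tph2+/- against Tph2+/+, and 0 in the other 5 contrasts. Of the 264 tests of member loci, 12 had an unadjusted p under 0.05 (4.55%), and the smallest adjusted p was 0.39.

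Prkcd-9 lay in an intron 22617 bp from the start of Prkcd, which encodes a kinase that acts downstream of diacylglycerol signals. In Tph2+/- controls its level had a lowest, median and highest value of 2.34, 2.95 and 3.97 CPM, and in Tph2+/- MS mice of 1.34, 2.08 and 2.58 CPM. Of the 8 Tph2+/- MS libraries, 7 were below the lowest control and 5 of the 8 controls were above the highest MS library, so the groups overlapped slightly. In Tph2+/+ mice the values were 1.95, 2.23 and 3.50 CPM in controls and 2.02, 2.62 and 3.59 CPM in MS mice, with 7 of 8 MS libraries above the control median. In Tph2-/- mice they were 1.78, 2.22 and 4.34 CPM in controls and 1.75, 2.13 and 2.99 CPM in the 6 fitted MS libraries, which overlapped widely. Over all genotypes, controls S1 to S17 had a mean of 2.87 ± 0.78 CPM (SD, n = 17). Controls S42 to S48 were at 2.17 ± 0.20 (n = 7), no higher than the MS runs S18 to S26 (2.39 ± 0.87, n = 9) and S27 to S41 (2.23 ± 0.38, n = 15). In Tph2+/- controls, replicates 7 and 8 of run S42 to S48 were lowest, at 2.34 and 2.39 CPM, with replicate 4 next at 2.55. The cause was not tested. With a term for controls S42 to S48 the count of called member loci in GE1 stayed at 1. That term in effect sets MS mice against controls S1 to S17, so it cannot tell MS from the order of the samples.

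The log2 fold change of Prkcd-9 for MS in Tph2+/- mice was -0.64 (SE 0.20, edgeR adjusted p = 1.0), a level of 0.641 times that of controls with a 95% interval of 0.488 to 0.842. GE1 was -0.85 (SE 0.28, edgeR adjusted p = 1.0). Neither estimate rested on a single Tph2+/+ or Tph2+/- library: with each left out in turn GE1 lay between -0.95 and -0.77, past the limits in all 32 fits. Without libraries S18 to S26, however, GE1 was -0.57 (SE 0.31) and the change in Tph2+/- mice -0.52 (SE 0.21), and neither was called. With library totals alone in place of TMM factors GE1 was -0.68 (SE 0.29) and was not called. Under that scaling the median GE1 of all loci was itself at 0.15. The 11 other loci of Prkcd were not called in any contrast, and the summed level of the gene, in which Prkcd-9 takes part, had a mean of 31.7 ± 2.91 CPM in Tph2+/- controls and 31.997 ± 2.48 CPM in Tph2+/- MS mice (SD, n = 8 each), with a log2 fold change of 0.01 (SE 0.07).

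Tac1-2 lay in an intron 6600 bp from the start of Tac1, the gene of substance P and neurokinin A. In Tph2+/+ controls its lowest, median and highest values were 0.79, 2.70 and 3.57 CPM, and in Tph2+/+ MS mice 0.97, 1.59 and 2.60 CPM. All 8 MS libraries were below the control median and 4 controls were above every MS library, but 1 control, replicate 3 with 9 counts, was below all MS libraries. In Tph2+/- mice the values were 1.41, 2.01 and 3.72 CPM in controls and 1.47, 2.09 and 2.63 CPM under MS, and in Tph2-/- mice 1.24, 2.20 and 2.80 CPM and 0.68, 2.06 and 2.92 CPM. The groups of these 2 genotypes overlapped over most of their range.

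The log2 fold change of Tac1-2 for MS in Tph2+/+ mice was -0.63 (SE 0.23, edgeR adjusted p = 0.76), or 0.647 times the control level (95% interval 0.470 to 0.891). It was close to the limit: with each Tph2+/+ or Tph2+/- library left out in turn it stayed between -0.76 and -0.55 but was called in 22 of 32 fits, and without Tph2+/+ control replicate 4, which was the highest, it was -0.55 (SE 0.24). With the CpG slope of each library as a covariate it was -0.52 (SE 0.23), and neither was called. With a like or larger fold the call was also lost with all 48 libraries (-0.63, SE 0.24), without S18 to S26 (-0.65, SE 0.26) and with the replicate number as a block (-0.62, SE 0.24). Whether the change differed between genotypes was tested by GE1 and GE2, in which Tac1-2 was not called. For MS over genotypes Tac1-2 had the smallest p of the members (-0.28, SE 0.14, edgeR adjusted p = 0.39) and was not called.

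**Figure D3:**
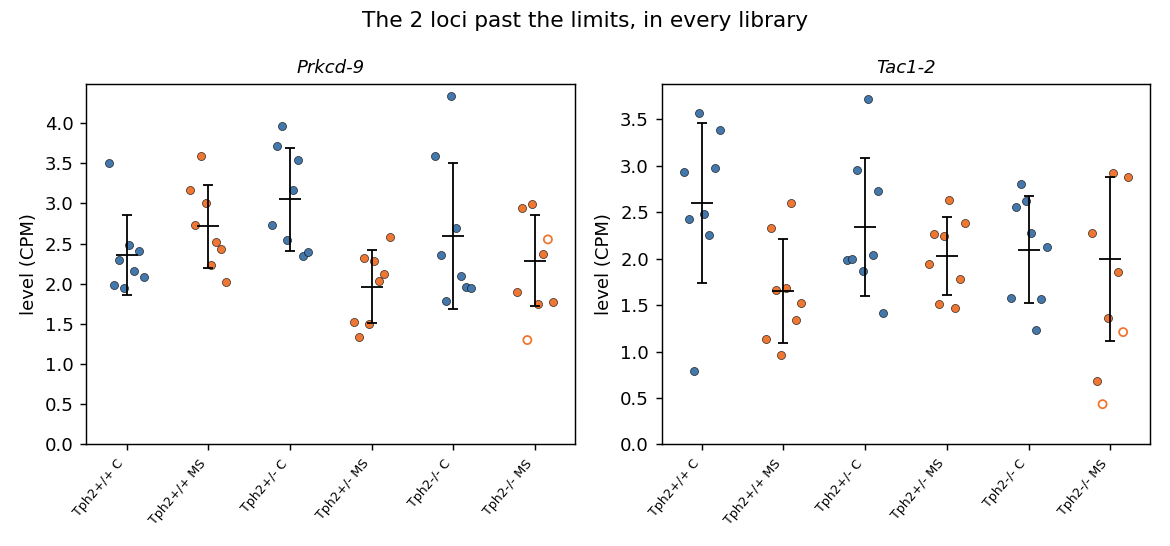
Level in CPM of Prkcd-9 and Tac1-2 in each library of the 6 groups, with mean and SD over the fitted libraries as bars; C is blue, MS is orange and open circles are the 2 Tph2-/- MS libraries left out of the fits. In Prkcd-9 the Tph2+/- MS libraries reach from 1.34 to 2.58 CPM and Tph2+/- controls from 2.34 to 3.97.

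The other member loci with an unadjusted p under 0.05 were not called. Among them, Penk-1 had a log2 fold change of 0.33 (SE 0.17) for MS in Tph2+/- mice. Prkcd-6 was at 0.47 (SE 0.23) for MS in Tph2+/+ mice. Pdyn-4, over exonic sequence of the prodynorphin gene, had the smallest p of the members in GE2 (log2 fold change -0.51, SE 0.21, edgeR adjusted p = 1.0) and a like value in GE1 (-0.50, SE 0.20), 2 contrasts that share the Tph2+/+ groups. Its mean level was 5.61 ± 0.55 CPM in Tph2+/+ controls and 6.55 ± 1.57 under MS, 6.70 ± 1.62 and 5.54 ± 0.58 in Tph2+/- mice, and 6.54 ± 1.55 and 5.33 ± 0.998 in Tph2-/- mice (SD, n = 8, for the last n = 6). The control mean was thus below the MS mean in Tph2+/+ mice and above it in the other genotypes, with overlapping libraries in each. With the CpG slope as a covariate GE2 of Pdyn-4 was -0.54 (SE 0.20), which passed the limits. Pdyn-3 had the smallest p for Tph2-/- against Tph2+/+ (-0.23, SE 0.11, edgeR adjusted p = 1.0).

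At Pvalb, the calcium buffer of fast-spiking interneurons, Pvalb-1 had the smallest p for MS in Tph2-/- mice (log2 fold change -0.65, SE 0.28, edgeR adjusted p = 0.68). Its mean was 2.06 ± 0.68 CPM in Tph2-/- controls (SD, n = 8) and 1.29 ± 0.47 in MS mice (n = 6), while the other 4 groups had means of 1.23 to 1.498 CPM. The control group was therefore the 1 that stood apart, with libraries from 1.11 to 2.95 CPM. Pvalb-2, the locus at the start of Pvalb, had the smallest p for Tph2+/- against Tph2+/+ (-0.33, SE 0.13, edgeR adjusted p = 1.0). Its means were 3.31 ± 0.69 CPM in Tph2+/+ controls, 3.58 ± 0.73 in Tph2+/+ MS mice, 2.80 ± 0.69 in Tph2+/- controls and 2.71 ± 0.71 in Tph2+/- MS mice (SD, n = 8 each). The CpG-dense intronic locus Pvalb-5 had means of 2.82 to 3.38 CPM over the fitted libraries of the 6 groups and no contrast with an unadjusted p under 0.05.

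No member gene was called when its loci were summed. The share of gene sums called over the 17205 genes with a locus was 0.488% in GE1, 0.581% in GE2, 2.85% for MS over genotypes, 1.45% for MS within Tph2+/+, 0.657% within Tph2+/- and 2.43% within Tph2-/- animals, 0.622% for Tph2-/- and 0.349% for Tph2+/- against Tph2+/+, and 0 of the 8 members were called in each. At an adjusted p under 0.05, 0 of the 8 were called where the share over all genes was 0.0349% for MS over genotypes, 0.0465% for Tph2-/- and 0.0349% for Tph2+/- against Tph2+/+. Of the 64 gene-sum tests, 2 had an unadjusted p under 0.05 (edgeR), Pdyn in GE1 and Tac1 in MS over genotypes. DESeq2's Wald test called 0 of the 8 gene sums in each contrast as well.

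**Figure D4:**
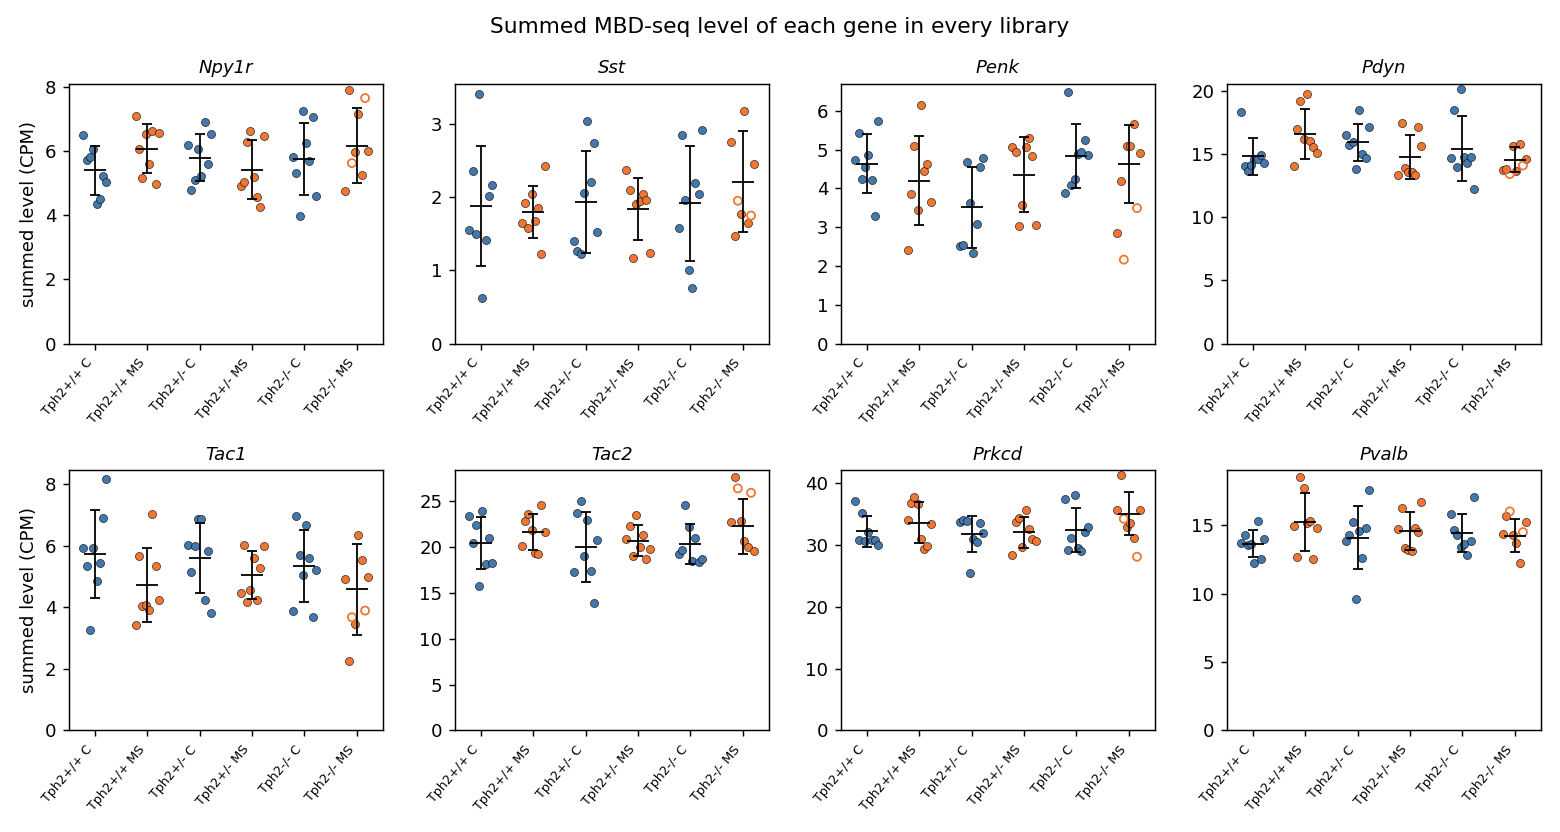
Summed level (CPM) of the 8 genes with a locus in each library of the 6 groups, with mean and SD over the fitted libraries; C is blue, MS is orange and open circles are the 2 libraries left out. The groups of each gene overlap; Tac1 has its lowest value, 2.26 CPM, in a Tph2-/- MS library.

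Among the opioid peptide genes, Pdyn (chr2:129686565-129699844) had lowest, median and highest summed levels of 13.7, 14.5 and 18.3 CPM in Tph2+/+ controls and 14.1, 16.1 and 19.8 CPM in Tph2+/+ MS mice. In Tph2+/- mice they were 13.8, 15.9 and 18.5 CPM in controls and 13.4, 13.8 and 17.4 CPM under MS. The medians thus moved in opposite directions within overlapping ranges, and GE1 was -0.28 (SE 0.12, edgeR adjusted p = 1.0). With libraries scaled by their totals alone GE1 was -0.11 (SE 0.14), a scaling under which the median of all loci itself was at 0.15. Penk (chr4:4133531-4138819), with the single locus Penk-1 over its last exon, had a GE1 of 0.46 (95% interval -0.01 to 0.93) and a change with MS in Tph2+/- mice of 0.33 (95% interval -0.0034 to 0.67). Its mean level was lowest in Tph2+/- controls, at 3.51 ± 1.04 CPM, and was 4.204 to 4.83 CPM in the other groups (SD, n = 8). Group means of gene sums are over the fitted libraries, with n = 8 and, in Tph2-/- MS mice, n = 6.

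Of the tachykinin genes, Tac1 (chr6:7554879-7565834) had a lower mean under MS than in controls in each genotype, but no difference was called. Its mean was 5.73 ± 1.43 CPM in controls and 4.72 ± 1.204 under MS in Tph2+/+ mice, 5.61 ± 1.13 and 5.05 ± 0.78 in Tph2+/- mice, and 5.35 ± 1.17 and, over the 6 fitted libraries, 4.59 ± 1.48 in Tph2-/- mice. The sum includes Tac1-2, the locus called above in Tph2+/+ mice. There Tac1-2 had means of 2.60 CPM in controls and 1.65 under MS, while Tac1-1 and Tac1-3 had log2 fold changes of 0.07 and -0.09. In Tph2+/- mice the 3 loci lay between -0.17 and -0.06. In Tph2-/- mice Tac1-3 was at -0.46 (SE 0.30), Tac1-1 at -0.13 and Tac1-2 at -0.05. The change of the sum over genotypes was -0.20 (SE 0.10, edgeR adjusted p = 0.23). Without S18 to S26 it was -0.10 (SE 0.10) and with the CpG slope as a covariate -0.10 (SE 0.09). A window of 10 kb on each side adds a locus 5296 bp upstream of Tac1 (chr6:7548545-7549583), which was itself lower under MS (-0.44, edgeR adjusted p = 0.17), and the sum with it was -0.28 (SE 0.08), past the limits. With this window 503 gene sums of the series passed the limits in the same contrast. Tac2 (chr10:127724478-127731768) had group means of 20.0 to 22.3 CPM, and MS over genotypes was 0.09 (SE 0.05).

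The receptor Npy1r (chr8:66697192-66706792), measured by the single locus Npy1r-1 over its coding and untranslated exons, had group means of 5.41 to 6.18 CPM. MS over genotypes was 0.06 (95% interval -0.09 to 0.21) and GE1 was -0.28 (SE 0.18). Sst (chr16:23889573-23890958) was measured only by a locus downstream of the gene, with group means of 1.79 to 2.21 CPM, and its counts were low enough that the 95% interval of GE2 reached from -0.43 to 1.01. Changes of up to 2.02 times in this contrast lay within the interval.

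Prkcd (chr14:30595354-30626210) was the most precisely measured sum, with the smallest SE of the 8 genes in each contrast. It had group means of 31.7 to 35.03 CPM, and MS over genotypes was 0.06 (95% interval -0.02 to 0.15). Pvalb (chr15:78191114-78206400) had group means of 13.7 to 15.2 CPM, with 0.07 (95% interval -0.04 to 0.17) for MS over genotypes and 0.16 (SE 0.09) in Tph2+/+ mice. Over the 8 genes, the change with MS over genotypes lay between -0.20 (Tac1) and 0.09 (Tac2), 6 of 8 estimates were above 0 and their median was 0.06, beside 62.8% above 0 and a median of 0.03 over all gene sums. For Tph2-/- against Tph2+/+ the 8 estimates lay between -0.07 and 0.16 and for Tph2+/- against Tph2+/+ between -0.18 and 0.03.

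**Figure D5:**
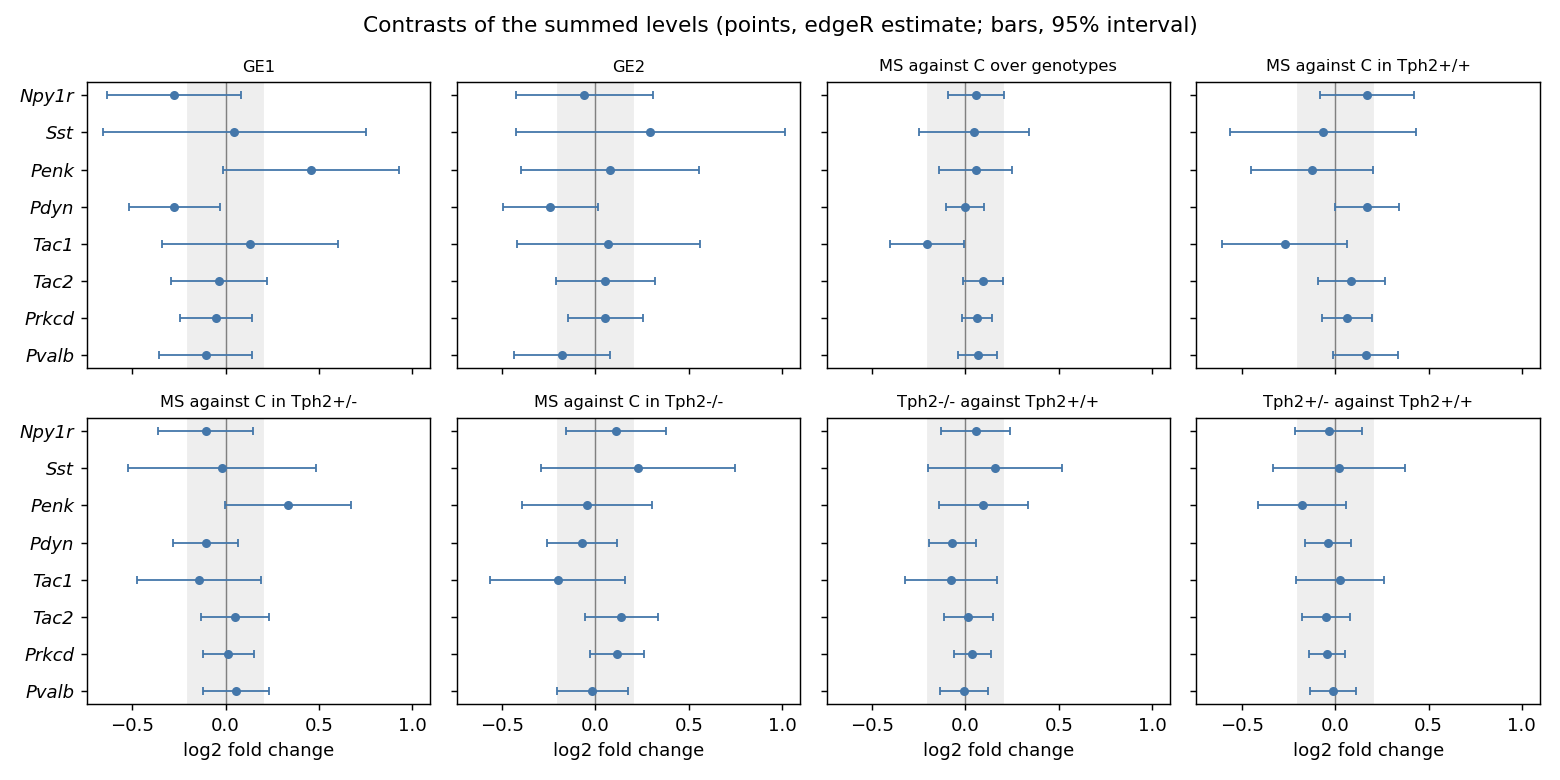
Log2 fold change of the summed level of the 8 genes in the 8 contrasts, with 95% intervals from the edgeR fit as bars and the range of -0.2 to 0.2 shaded. Intervals are narrowest for Prkcd and widest for Sst, and those without 0 are Pdyn in GE1 and Tac1 in MS over genotypes.

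Genes of related roles were examined by the same sums. Of 17 receptor genes for the members' peptides 15 had a locus and none was called in any contrast, with the smallest p at Npy4r in GE1 (-0.37, SE 0.15, edgeR adjusted p = 1.0). Npy4r passed the limits without S18 to S26 (-0.48, SE 0.16) and with the CpG slope as a covariate (-0.38, SE 0.12), while it was -0.20 (SE 0.22) with loci of the gene body alone. Of 12 genes of peptide processing and release 7 had a locus, and Pcsk2, a convertase that cleaves propeptides such as proenkephalin and prodynorphin, was called as higher under MS over genotypes (0.29, SE 0.09, edgeR adjusted p = 0.10), in a contrast where 2.85% of all gene sums were called. Without S18 to S26 the value of Pcsk2 was 0.05 (SE 0.06) and with the CpG slope as a covariate 0.09 (SE 0.04), and it was not called in either. The others of this list were not called in any contrast, and the median of the 7 for MS over genotypes was 0.06 beside 0.03 over all genes. Of 20 further interneuron markers and genes of GABA synthesis and transport 18 had a locus and none was called, with the smallest p at Adarb2, a marker of interneurons from the caudal ganglionic eminence (MS over genotypes, 0.08, SE 0.03, edgeR adjusted p = 0.13), which missed the limit of size. Adarb2 was at 0.03 (SE 0.03) without S18 to S26 and at 0.03 (SE 0.02) with the CpG slope as a covariate.

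Across the 46 fitted libraries the members varied in both directions relative to each other. Pearson's r between log2 sums of member genes (pseudocount 0.1) ranged from -0.50 for Tac1 with Prkcd to 0.41 for Prkcd with Pvalb, values that share libraries, depth and capture and are given as a description. Of 12940 to 12998 candidate genes over 1 Mb away with a mean sum of 50 counts or more, Lmo1 (r = 0.72) and Pcx (0.63) were most like Prkcd, Vps41 (0.66) and AA792892 (0.66) most like Tac1, and Aspg (0.62) and Emc10 (0.62) most like Tac2. For Penk they were Vmn2r112 (0.58) and Tbc1d10a (0.53), for Pvalb Ndufaf3 (0.56) and Spata31 (0.55), and for Sst Cyp2a4 (0.55) and Nt5c3b (0.53). For Pdyn they were Fbln5 (0.52) and Nemp1 (0.49), and for Npy1r Stc2 (0.50) and Bhlhe41 (0.49). These genes were picked as the 2 of highest r among the candidates, and their likeness was not tested. The median r over the candidates lay between -0.17 for Tac1 and 0.13 for Tac2.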

How the data were processed

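MBD-captured amygdala DNA of 48 mice was sequenced as 50 bp read pairs. Per the labels and the study's methods, the authors mapped reads with Bowtie2 2.1.0 to GRCm38, called peaks with MACS, merged them over libraries and counted reads with DiffBind 2.0.9. The deposited table holds these raw counts, unnormalised, at 187695 loci. Both mates of a pair can be counted, so counts are not independent molecules, capture depends on CpG density, and intervals cover the spread between libraries only. Each library is labelled as a separate mouse. The fits take mice as independent although litters were assigned to MS or C, so intervals for MS may be too narrow.

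Loci were assigned to genes of GENCODE M21 on GRCm38, and counts were summed per gene over the window. Levels are CPM scaled by TMM factors. Tests used edgeR 4.0.16 (R 4.3.3): quasi-likelihood F-tests, trended dispersion, robust fit, 1 term per group, 46 libraries, no covariate, with p-values adjusted over all 187695 loci or 17205 gene sums. All members are named, as are loci past the limits, the highest locus of each gene per kb, any locus at a start, the member locus of smallest p in each contrast, and from each list the genes past the limits or else the smallest p. Pdyn-3, Pdyn-4, Pvalb-1 and Pvalb-2 are named by that rule. Prkcd-6, Pvalb-5 and the added loci upstream of Tac1 and downstream of Pdyn are named after their values were seen. Members and lists were chosen with earlier results of these data known. The procedure was tested on simulated data. Alternatives were DESeq2 1.42.0, other scalings, filters, libraries, covariates and windows. Correlations of replicate numbers across groups averaged 0.015, so the numbers were not taken to pair mice.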

Additional observations from a re-analysis of the deposited data

Results flagged for a closer look

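Of 60 group values of gene sums and of the 2 called loci, 4 held a library far from the others, where chance flags about 1 in 20 groups. The summed level of Pdyn was 18.3 CPM in Tph2+/+ C replicate 1, against 14.9 CPM in the next library. Prkcd was at 25.4 CPM in Tph2+/- C replicate 4, against 30.4 CPM in the next. Tac1-2 was at 0.794 CPM in Tph2+/+ C replicate 3, against 2.25 CPM in the next, and Prkcd-9 at 3.50 CPM in Tph2+/+ C replicate 1, against 2.48 CPM in the next. The effect of MS on Prkcd-9 differed between Tph2+/- and Tph2+/+ mice by -0.85 on the log2 scale at the study's unadjusted limits (GE1), with an edgeR adjusted p of 1.0.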

How the results depend on the processing

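The 16 counts of called member loci and gene sums were recomputed under 12 alternatives, and all but 11 of the values were within 1.5 times the count above. In place of 1, the count in GE1 was 0 without S18 to S26 and 0 with library totals alone. For MS in Tph2+/+ mice it was 0 with all 48 libraries, 0 without S18 to S26, 0 with the CpG slope as covariate and 0 with the replicate number as a block. For MS in Tph2+/- mice it was 0 without S18 to S26. In place of 0, the count in GE2 was 1 with the CpG slope (Pdyn-4), where 1551 of all 187695 loci were called, against 1048 in the main fit. With 10 kb on each side, which adds 13 loci, it was 2 loci and 1 gene sum for MS over genotypes and 1 locus in Tph2-/- mice, all at added loci (upstream of Tac1 and downstream of Pdyn). Of all loci, 3.63% were called for MS over genotypes and 1.48% in Tph2-/- mice. With this window 503 gene sums of the series were called for MS over genotypes, against 491 in the main fit. The cause of these differences between settings was not tested.

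With the replicate block, Tac1-2 for MS in Tph2+/+ mice was -0.62 (SE 0.24), no longer past the limit of p, and Prkcd-9 kept its calls. Same-numbered libraries of different groups correlated by -0.16 to 0.24, and 5 of 46 libraries correlated best with their own number. The block changed no other call.

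The same alternatives were applied to Pcsk2, Npy4r and Adarb2 after the data were seen. Leaving out each Tph2+/+ and Tph2+/- library in turn was added after the data were seen and was fitted on 20885 loci. It gave -0.95 to -0.77 for Prkcd-9 in GE1, -0.71 to -0.58 for Prkcd-9 under MS in Tph2+/- mice and -0.76 to -0.55 for Tac1-2 under MS in Tph2+/+ mice. Depth limits the members most at Tac2-2, with a mean of 11.8 counts per library, and at Tac1-1 and Prkcd-12.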
